A study of Mus musculus with 12 samples.

Results

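The genes described here carry glucose into the cell and down glycolysis to lactate: the transporter Slc2a1, the hexokinases Hk1 and Hk2, the phosphofructokinases Pfkp and Pfkl, Aldoa, Tpi1, Pgk1, Pkm and Ldha. They were taken by symbol, 10 of the 54532 genes listed for each sample, and all 10 were among the 17658 genes with enough counts to be tested. Gene expression in the colon of male C57BL/6 mice, bought at 6 weeks of age, was measured by RNA sequencing in 4 groups with 3 mice each. Con mice received no dextran sulfate sodium (DSS), a sulfated polysaccharide that injures the colon lining when drunk, and DSS mice drank water with 3% of it for 5 days. UA+DSS mice had the same DSS and were also gavaged with ursolic acid (UA), a plant triterpenoid, at 200 mg/kg daily for 7 days from 1 day before DSS. DSS+UA mice had the DSS and the same daily dose of UA for 4 days from 3 days after DSS began. The methods give Con and DSS mice the gavage vehicle without UA, while the labels call them untreated. RNA came from colon tissue of 3 of the mice kept in each group, and the methods do not name the part of the colon. In such tissue, fewer cells of a type and less RNA per cell cannot be told apart in any value below. Nothing in the labels ties the 3 samples of a group to separate cages or days, and the p-values measure the spread between these mice.

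Glycolysis splits glucose into 2 molecules of pyruvate and makes a little ATP without oxygen. The first steps spend ATP: the transporter Slc2a1 (GLUT1) lets glucose in, hexokinase traps it as glucose 6-phosphate, and phosphofructokinase commits it to the pathway. Aldolase and triose phosphate isomerase then give 3-carbon sugars, the kinases Pgk1 and Pkm return ATP, and lactate dehydrogenase turns pyruvate into lactate, which restores NAD+. Colon epithelial cells mostly burn butyrate from bacteria, whereas neutrophils and activated macrophages rely on glycolysis. Many of these genes are textbook targets of the hypoxia-inducible factor HIF-1, whose binding sites hold a short core of letters.

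The promoters of 3 members are shown, and each held the usual form of this core more than once before 1 start. Each is the 250 bases before the RefSeq start, or the first of 2 for Ldha, on GRCm38.p6, read 5′ to 3′ on the strand of the gene. Capitals mark the core on either strand. Its usual form was searched as ACGTG. A weaker form was searched as GCGTG. The palindrome CACGTG holds the usual form once on each strand and was counted there as 2 matches.
Pgk1 (chrX:106186850-106187099, + strand): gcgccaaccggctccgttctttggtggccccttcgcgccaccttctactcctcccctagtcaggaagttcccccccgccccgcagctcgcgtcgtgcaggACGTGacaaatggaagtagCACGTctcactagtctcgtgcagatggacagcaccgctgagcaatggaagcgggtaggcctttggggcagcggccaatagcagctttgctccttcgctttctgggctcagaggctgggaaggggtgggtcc
Ldha (chr7:46845554-46845803, + strand): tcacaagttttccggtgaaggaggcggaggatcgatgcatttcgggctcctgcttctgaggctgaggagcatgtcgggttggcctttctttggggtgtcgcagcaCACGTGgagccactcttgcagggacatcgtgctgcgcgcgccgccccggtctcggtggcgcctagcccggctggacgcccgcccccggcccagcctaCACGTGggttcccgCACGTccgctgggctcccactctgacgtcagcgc
Hk2 (chr6:82774455-82774704, - strand): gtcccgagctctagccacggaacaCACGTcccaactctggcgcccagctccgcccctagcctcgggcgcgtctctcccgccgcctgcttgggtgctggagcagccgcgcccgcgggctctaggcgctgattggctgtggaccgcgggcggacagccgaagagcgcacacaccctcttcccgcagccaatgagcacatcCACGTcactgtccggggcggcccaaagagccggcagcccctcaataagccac
Pgk1 and Hk2 each held ACGTG at 2 places. Ldha held 5 matches, of which 4 came from 2 copies of the palindrome CACGTG. These lie before the first of its 2 starts in the table, while the second held no ACGTG and 1 GCGTG. The usual form, ACGTG, was found before at least 1 start of 6 of the 10 members, and in 18.5% of all 27025 genes with a promoter in the RefSeq table. The weaker form was found for 5 of the 10 and in 30.9% of all genes. Tpi1 held neither before its start. Pkm held 1 ACGTG before the second of its 2 starts and none before the first. Such letters are a description of the sequence, and binding was not measured.

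Total counts ran from 15566216 to 19498383 per sample, and values are counts scaled by TMM to a common library size (CPM) unless stated. Epithelial markers such as Epcam and Krt8 were present in every library, at a sum of 5632 to 23684 CPM over 8 genes, and 6 skeletal muscle markers summed to at most 26.7 CPM. Neutrophil markers (8 genes) summed to 10.2 to 115 CPM in Con, 921 to 18447 in DSS, 31.1 to 126 in UA+DSS and 407 to 1029 in DSS+UA, and the library DSS 2 alone holds the value of 18447. Exocrine pancreas markers summed to 12457 CPM in DSS 3 and to at most 554 elsewhere. Position along the colon was scored by taking the mean log2 level of 5 Hox genes of the rectal end and subtracting that of 6 of the caecal end. The score was -5.70 to -4.16 in UA+DSS, 4.11 to 5.06 in DSS+UA, 0.37 to 3.10 in DSS, and -3.03, -1.83 and 5.53 in Con. The 2 UA groups thus lie at opposite ends, and neither overlaps with DSS, so the piece of colon and UA cannot be told apart between them or against DSS. UA+DSS does not overlap with Con either, so the piece of colon and treatment cannot be told apart there. DSS and DSS+UA lie within the Con range only through Con 1. Con 1, the Con library with a score near DSS+UA, had the lowest level of all 12 libraries for 8 of the 10 members. Where the score was put in a fit below, its slope came from the spread within groups, which was widest in Con through Con 1. Such fits carry that slope across groups, so they cannot separate position from treatment where the scores do not overlap.

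**Figure D1:**
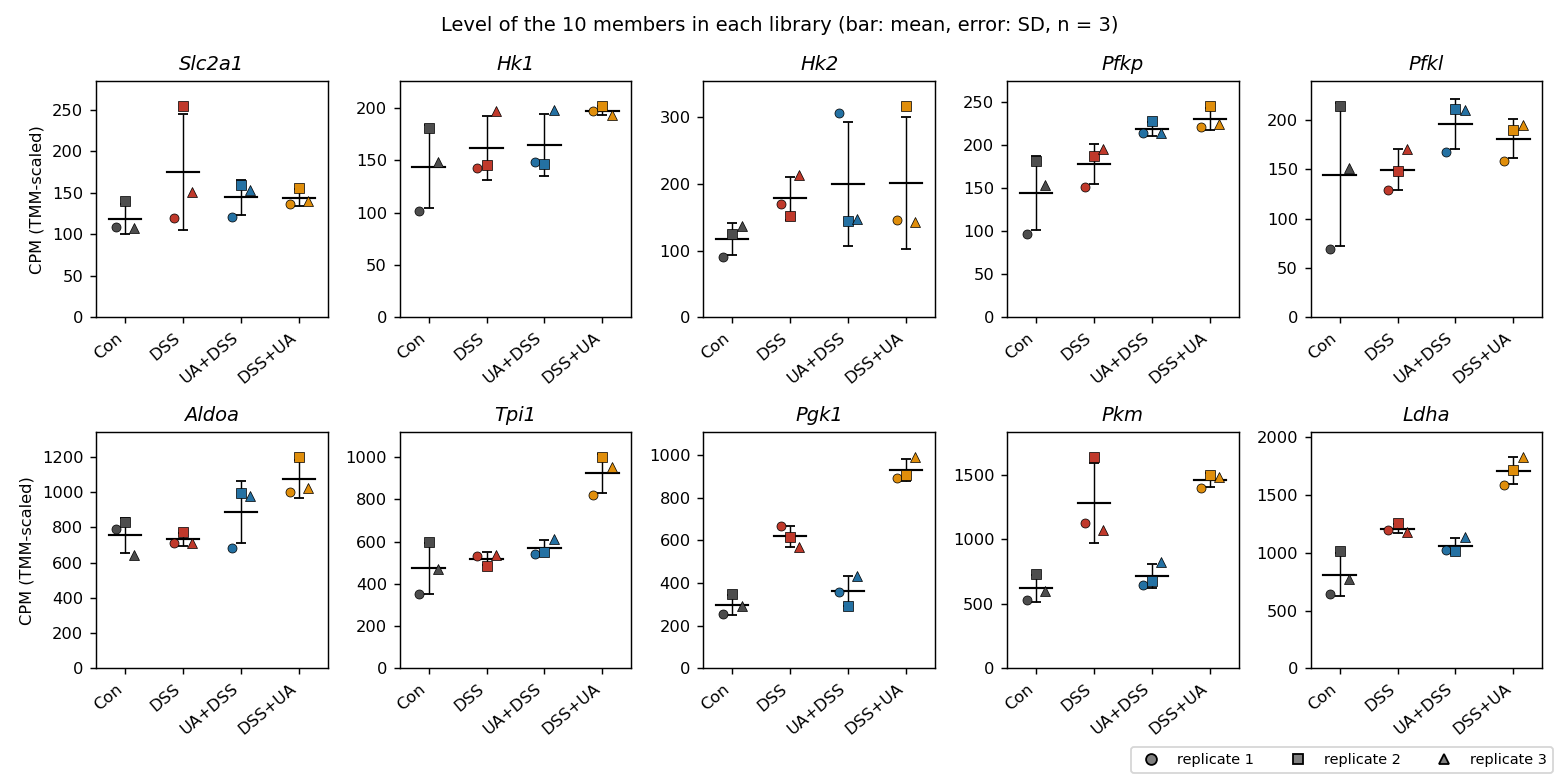
Level of each member in CPM (vertical axis, from 0) in the 12 libraries by group, with the mean as a bar and the SD over 3 mice as an error line. Pgk1, Pkm and Ldha lie above Con in every DSS and DSS+UA library, Tpi1 and Aldoa stand above all other libraries in the 3 DSS+UA libraries, and single libraries set the means of Slc2a1 in DSS and of Hk2 in both UA groups.

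Per kilobase of merged exons, the lower part of the pathway was far more abundant than the entry. Over the 12 libraries, Ldha averaged 361 CPM per kilobase, Aldoa 296, Pgk1 246, Tpi1 226 and Pkm 204. Slc2a1 averaged 41.5, Hk2 29.2, Pfkl 25.1, Hk1 19.6 and Pfkp 14.4 on the same scale. Merged exons overstate the transcript length of genes with many annotated isoforms, such as Pfkp at 13.4 kilobases, so the order among neighbours in this list is loose.

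Processed copies of glycolytic genes took few counts from the members. Copies of Tpi1 held 1.48% of the counts of the gene and its copies together, those of Pkm 0.81%, those of Pgk1 and Ldha 0.25% each, and the single copy of Aldoa 5 counts. The other 5 members had no processed copy by the search used. Pgk1 shares 53.8% of its 50-base stretches with the copy Pgk1-rs7, to which 305 counts were given against 121585 for Pgk1. Adding the copies to their genes left the number of called members the same in all 6 comparisons. Gapdh, often used as a reference gene, was the opposite case. It was listed at 5.16 to 28.1 CPM in 11 libraries and at 170.4 CPM in DSS 1, and its copies held 15.1% of the joint counts in DSS 1 (95% exact binomial interval 14.0 to 16.2) and 54.3% to 87.9% in the others. At 5.99 CPM per kilobase against 226 for Tpi1, the step just before it, these counts give no usable level of Gapdh, and how the authors' counting handled reads matching several places is not given in any source at hand.

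With DSS, the members that changed were Pgk1 and Pkm, the ATP-making kinases, at 2.07-fold and 2.06-fold. Of the 10 members, 2 rose and none fell, while 26.5% of all tested genes were called in this comparison and 13.9% were called higher. That share is not far from the background. The median log2 fold change of the 10 was 0.43, against -0.03 over all tested genes. No Con library overlapped with DSS for 4 of the 10 (Hk2, Pgk1, Pkm and Ldha), beside 41.3% of all genes.

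Pgk1, phosphoglycerate kinase, makes the first ATP that glycolysis returns. It stood at 253, 347 and 294 CPM in Con and at 669, 615 and 571 CPM in DSS. All DSS libraries were above all Con libraries, with a log2 fold change of 1.05 ± 0.19 (SE, n = 3 and 3, edgeR adjusted p = 0.0047). Pkm, pyruvate kinase of muscle and most other tissues, makes the last ATP and exists as the isoforms M1 and M2, which counts per gene do not separate. Its levels were 529, 731 and 599.6 CPM in Con and 1130.2, 1635 and 1071 CPM in DSS. The groups did not overlap, DSS 2 was the highest library, and the log2 fold change was 1.04 ± 0.22 (adjusted p = 0.0078), with an adjusted p of 0.062 when only these 2 groups were fitted. Pkm overlaps the locus Gm49759 on the same strand, which held 4024 counts against 224925.

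Ldha, which makes lactate, was measured at 646, 1010.3 and 775 CPM in Con and 1193, 1253 and 1176 CPM in DSS. Every DSS library was above every Con library, but the log2 fold change of 0.58 ± 0.20 missed the threshold (adjusted p = 0.053), and 6 of 23 alternative settings put it past. Hk2, the inducible hexokinase, showed 90.5, 126 and 137 CPM in Con and 170.1, 152 and 214 CPM in DSS. These did not overlap either, yet the change of 0.60 ± 0.37 was not called (adjusted p = 0.24). Slc2a1, the basal glucose transporter, was at 108, 139.9 and 107 CPM in Con and at 120.1, 254 and 151 CPM in DSS. DSS 2 was the highest of the 12 libraries while DSS 1 lay within Con, and the log2 fold change of 0.56 ± 0.25 had an adjusted p of 0.11. Without DSS 1 that p was 0.048.

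The remaining members showed no call with DSS. Hk1, the housekeeping hexokinase, was at 102 to 181 CPM in Con and 143 to 197 in DSS. Pfkl and Pfkp, the liver-type and platelet-type phosphofructokinases, had log2 fold changes of 0.05 ± 0.32 and 0.30 ± 0.21. Aldoa, which splits the 6-carbon sugar, and Tpi1, which interconverts the products, changed by -0.04 ± 0.20 and 0.13 ± 0.20. Tpi1, next to Pgk1 in the pathway but for the Gapdh step, was at 532, 483 and 539 CPM in DSS, within the 352 to 596 CPM of Con.

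Pgam1 and Eno1, the enzymes between Pgk1 and Pkm, went the same way as these 2. Eno1 (enolase) was at 271, 408 and 333 CPM in Con and at 684, 877 and 652 CPM in DSS, a log2 fold change of 1.13 ± 0.23 (adjusted p = 0.0064). Pgam1 (phosphoglycerate mutase) was at 83.1, 140.4 and 139 CPM in Con and at 211, 216 and 211 CPM in DSS, a change of 0.82 ± 0.21 (adjusted p = 0.018). The 4 steps from Pgk1 to Pkm were all called higher with DSS, and no library of DSS overlapped with Con for any of these 4 genes. Gpi1, which comes between hexokinase and phosphofructokinase, changed by -0.24 ± 0.21 (adjusted p = 0.42).

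**Figure D2:**
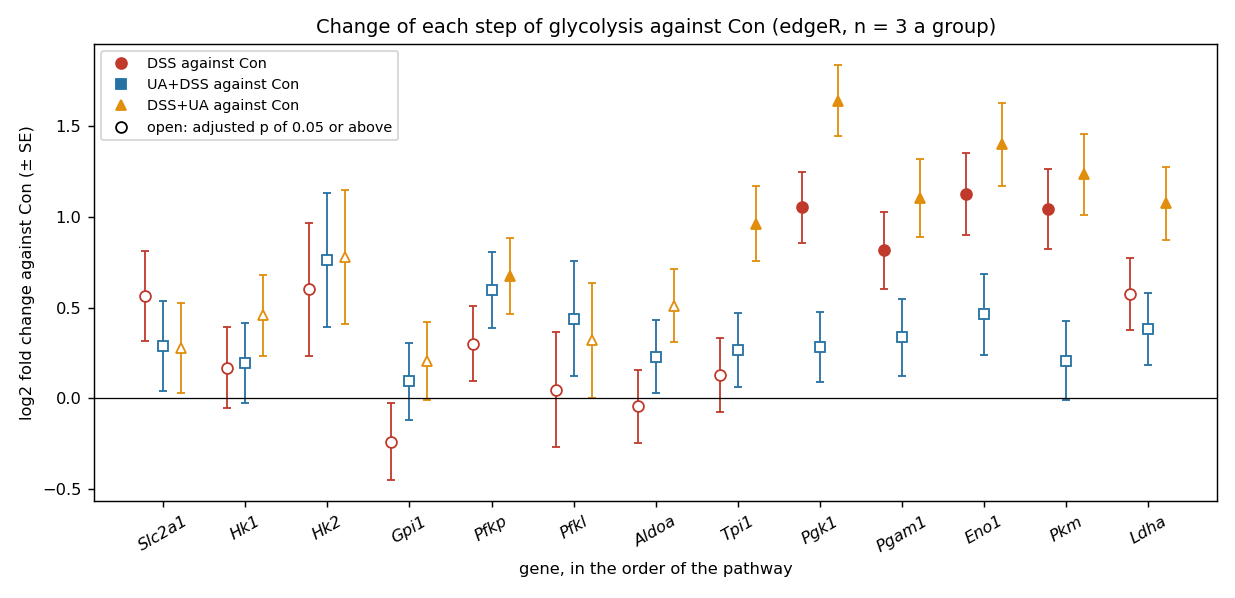
Log2 fold change against Con (vertical axis, with its SE) of 13 genes in pathway order for DSS, UA+DSS and DSS+UA, with filled symbols for an adjusted p under 0.05. The filled DSS symbols are Pgk1, Pgam1, Eno1 and Pkm at 0.82 to 1.13, no UA+DSS symbol is filled, and the DSS+UA symbols are filled from Tpi1 to Ldha and for Pfkp.

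In mice given UA from the day before DSS, Pgk1 and Pkm were lower than with DSS alone, and the other 8 members were not called. Of all tested genes 18.7% were called in this comparison and 10.5% were called lower in UA+DSS, and libraries did not overlap for 42.8% of genes and for 5 of the 10 members. The median log2 fold change of the members was 0.08, against -0.02 over all genes, since 6 members lay above 0 without a call.

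Pgk1 was at 359.9, 294 and 434 CPM in UA+DSS, all under the lowest DSS library at 571. The log2 fold change of -0.77 ± 0.19 had an adjusted p of 0.022, and it was called in 18 of 23 alternative settings. Pkm, at 648, 677 and 822 CPM in UA+DSS, was also below every DSS library, with a change of -0.84 ± 0.22 (adjusted p = 0.026, called in 17 of 23). The position scores of UA+DSS and DSS do not overlap, so a fit with the score cannot tell position and UA apart. In that fit the changes of Pgk1 and Pkm were -0.92 ± 0.28 and -1.07 ± 0.32, and neither was called (adjusted p = 0.14 and 0.13). Nor was either called in a fit of these 2 groups alone (0.053 and 0.063). Leaving out UA+DSS 1 or UA+DSS 2 likewise ended both calls (adjusted p from 0.062 to 0.10). Pgk1 was also not called without DSS 1 (0.068), nor Pkm without DSS 2 (0.080) or UA+DSS 3 (0.051).

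Against Con, UA+DSS showed no called member, in a comparison where 1 of all tested genes was called (0.00566%). By edgeR, 1 of the 10 members had an unadjusted p under 0.05, and DESeq2 and limma-voom called none of the 10 either. All 10 members nevertheless had a log2 fold change above 0, from 0.19 to 0.76, with a median of 0.29 against -0.01 over all genes. The position scores of UA+DSS and Con do not overlap, so position and treatment cannot be told apart here. The libraries did not overlap for 3 of the 10 (Hk2, Pfkp and Ldha), beside 20.6% of all genes. Pfkp stood at 97.2, 181 and 154 CPM in Con and at 213, 228 and 214 CPM in UA+DSS, an uncalled change of 0.60 ± 0.21 (adjusted p = 0.33).

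Mice given UA from 3 days into DSS had the highest group means of the lower pathway in the study. Against Con, 5 of the 10 members rose (Pfkp, Tpi1, Pgk1, Pkm and Ldha) and none fell, beside 18.1% of all genes called and 9.13% called higher. Libraries did not overlap for 8 of the 10, all higher in DSS+UA, beside 38.9% of all genes in either direction. The median log2 fold change of the members was 0.73, against -0.03 over all genes. Of the Con libraries, Con 1 alone has a position score near DSS+UA, and the part of position in these changes was not tested.

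Pgk1 reached 894, 908 and 989 CPM in DSS+UA, above every other library. Its log2 fold change against Con was 1.64 ± 0.20, or 3.12-fold (adjusted p = 0.0032), and it was called in all 23 alternative settings. Ldha was at 1587, 1715 and 1823 CPM, again the 3 highest of the 12 libraries. It changed by 1.08 ± 0.20 against Con (2.11-fold, adjusted p = 0.0079) and was called in all 23. Pkm was at 1395, 1501 and 1481 CPM, above all Con and UA+DSS libraries but not above DSS 2 at 1635. The change against Con was 1.24 ± 0.22 (2.35-fold, adjusted p = 0.0071), also called in all 23 settings.

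Tpi1 set DSS+UA apart from the other 3 groups. At 819.5, 998 and 952 CPM, its 3 libraries were above the other 9, which ran from 352 to 614 CPM. It was called against Con (0.96 ± 0.21, adjusted p = 0.012), against DSS (0.83 ± 0.20, adjusted p = 0.039) and against UA+DSS. The call against DSS was held in 12 of the 23 alternative settings, and leaving out any library of DSS or UA+DSS, or DSS+UA 2 or 3, gave an adjusted p of 0.052 to 0.14. With the position score in the fit the change against DSS was 1.02 ± 0.19 (adjusted p = 0.039). The scores of DSS+UA and DSS do not overlap, so that fit cannot tell position and UA apart. Pfkp, at 221, 245 and 225 CPM, was higher than in Con by 0.68 ± 0.21 (adjusted p = 0.045), and that call was held in 12 of 23. It was lost without Con 1, Con 3 or any 1 library of the UA groups, at adjusted p-values of 0.061 to 0.10. Its exons overlap those of Pitrm1 on the other strand, which held 8073 counts against 41781 for Pfkp, and without strand the reads of the shared bases cannot be told apart.

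Against DSS, 1 of the 10 members was higher in DSS+UA, Tpi1, where 7.54% of all genes were called and 2.54% were called higher. Libraries did not overlap for 5 of the 10 (Pfkp, Aldoa, Tpi1, Pgk1 and Ldha), beside 34.7% of all genes. Pgk1 was higher by 0.59 ± 0.19, Aldoa by 0.55 ± 0.20 and Ldha by 0.50 ± 0.20, with adjusted p-values of 0.076, 0.099 and 0.12 by edgeR. DESeq2 called all 3 along with Tpi1, with adjusted p-values of 0.016, 0.031 and 0.034. Aldoa was at 1003, 1197 and 1025 CPM in DSS+UA, the 3 highest of the 12 libraries, against 682 to 992 CPM in UA+DSS.

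Set directly against each other, the 2 UA schedules differed for the 4 members from Tpi1 to Ldha, each lower in UA+DSS, while 16.8% of all genes were called and 9.23% were called lower in UA+DSS. The log2 difference was -1.36 ± 0.20 for Pgk1 (adjusted p = 0.0061), -1.03 ± 0.22 for Pkm (0.014), -0.70 ± 0.20 for Tpi1 (0.040) and -0.69 ± 0.20 for Ldha (0.037). Their libraries did not overlap, as for Aldoa, a total of 5 of the 10 members beside 45.3% of all genes. The position scores of the 2 groups are those at the far ends given above, and with the score in the fit none of the 4 was called (adjusted p from 0.28 to 0.30). The differences were then larger, with larger errors, at -1.57 ± 0.37 for Pgk1, -1.37 ± 0.41 for Pkm, -1.31 ± 0.33 for Tpi1 and -1.17 ± 0.33 for Ldha. As the slope for the score came mostly from the spread among Con libraries, these values do not tell position and UA apart. Leaving out any 1 library of the UA groups left 1 or 2 of the 4 called, Pgk1 always among them. Tpi1 was also lost without DSS 1 (adjusted p = 0.051). The members from Slc2a1 to Aldoa differed by -0.28 to 0.12 and were not called.

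**Figure D3:**
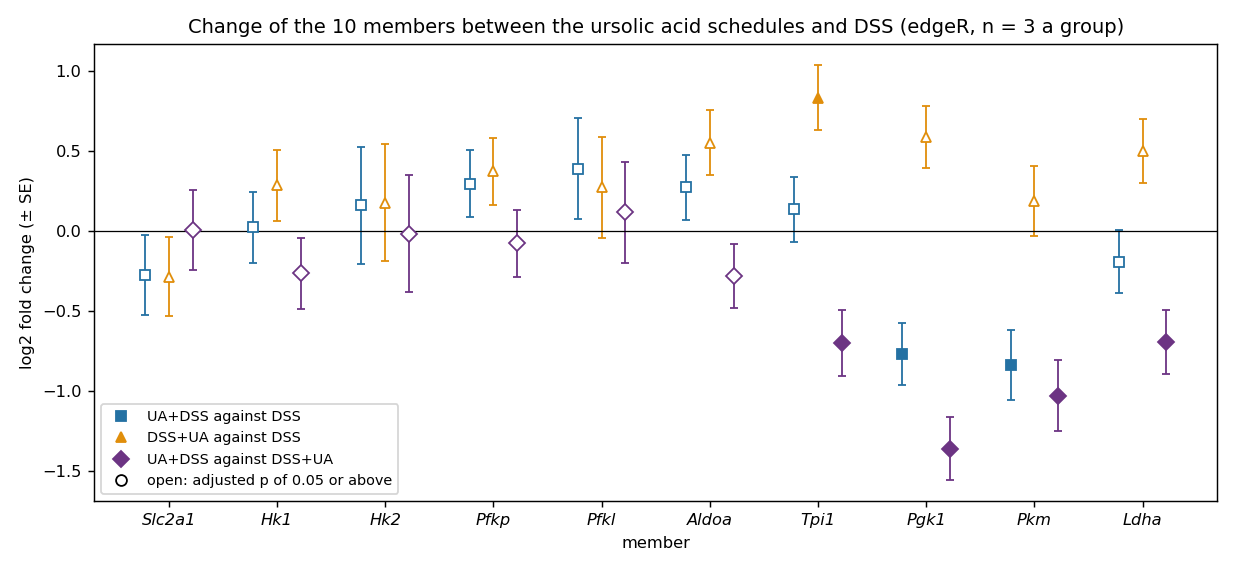
Log2 fold change (vertical axis, with its SE) of the 10 members for UA+DSS against DSS, DSS+UA against DSS and UA+DSS against DSS+UA, with filled symbols for an adjusted p under 0.05. Filled symbols lie only from Tpi1 to Ldha, below 0 for UA+DSS and above 0 for Tpi1 in DSS+UA against DSS.

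Across the 6 comparisons, the 6 members from Slc2a1 to Aldoa gave 1 call of 36, and the 4 from Tpi1 to Ldha gave 13 of 24. Over all tested genes, 0.00566% to 26.5% were called in the 6 comparisons. The split lies where most of the member calls begin, so the contrast between its parts describes these calls and is no test. These comparisons share groups, so the calls are not independent of each other. For Pgk1, Pkm and Ldha the order of the group means was Con, UA+DSS, DSS and DSS+UA, from low to high. Neither Con and UA+DSS nor DSS and DSS+UA, neighbours in that order, were told apart by edgeR for any of the 3. UA+DSS and DSS were told apart for Pgk1 and Pkm, while for Ldha the difference was -0.19 ± 0.20 (adjusted p = 0.54). In Pgk1, the 4 groups stood at 298 ± 47.1, 363 ± 69.8, 618 ± 49.4 and 930.0 ± 51.3 CPM (SD, n = 3) in that order.

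Hk2 and Slc2a1, the members most often read as markers of glucose use, were set by single libraries. UA+DSS libraries held 307, 145 and 147 CPM of Hk2, and DSS+UA libraries 146, 316 and 144 CPM. One library of each UA group, UA+DSS 1 and DSS+UA 2, thus stood above the rest of the 12, which reached at most 214 CPM, and no comparison of Hk2 was called. The log2 fold change against DSS was 0.16 ± 0.37 for UA+DSS and -0.29 without UA+DSS 1. For DSS+UA it was 0.18 ± 0.37 and -0.34 without DSS+UA 2. Slc2a1 was -0.28 ± 0.25 against DSS in both UA groups, and 0.09 and 0.10 in UA+DSS and DSS+UA without DSS 2.

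The genes nearest to these members over the 12 libraries, by Pearson correlation of log2 CPM, followed the same single libraries. For Hk2 they were Duoxa2 (r = 0.91), Duox2 (0.90), which with Duoxa2 forms the dual oxidase of the epithelial surface, and Mcpt1 (0.89), a mast cell protease. Duox2 stood at 499.9 CPM in UA+DSS 1 and, in DSS+UA 2, at 315 CPM, against 47.7 to 197 in the other 10 libraries. For Slc2a1 they were Dgat2 (0.92), Pxn (0.91) and Cldn4 (0.90), each highest in DSS 2. For Ldha they were Pgd (0.99), an enzyme of the pentose phosphate pathway, Szrd1 (0.98) and AI661453 (0.97). The 12 points share group, position and depth, so the coefficients are a description.

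Ratios between genes for the same step do not depend on the scaling of a library. The ratio of Hk2 to Hk1 per kilobase was 0.99 to 1.32 in Con, 1.495 to 1.70 in DSS, 1.06 to 2.95 in UA+DSS and 1.06 to 2.25 in DSS+UA. No difference among the 4 groups was detected (exact permutation test of the F statistic over 369600 groupings, p = 0.68, adjusted over 3 ratios p = 0.68). The ratio of Pfkp to Pfkl was 0.42 to 0.70 over all libraries, and no difference was detected by the same exact permutation test (p = 0.53, adjusted p = 0.68). Ldhb, the heart-type lactate dehydrogenase, was scarce at 2.44 to 19.8 CPM. The ratio of Ldha to Ldhb per kilobase was 24.6 to 99.6 in Con, 46.6 to 58.8 in DSS, 24.3 to 47.5 in UA+DSS and 96.3 to 350.5 in DSS+UA. The exact permutation p was 0.021 and 0.064 after adjustment over the 3 ratios. The adjusted value was 0.018 without Con 1, whose ratio of 99.6 was the one Con value within the DSS+UA range. Con 1 is also the one Con library with a position score near DSS+UA, so that fit leaves no Con library at a like position. Ldhb was at 3.05 CPM in Con 1, at 12.8 and 14.9 in Con 2 and Con 3, and at 2.44 to 7.79 in DSS+UA. Ldha in Con 1 was the lowest of the 12 libraries. The part of position in the ratio was not tested.

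**Figure D4:**
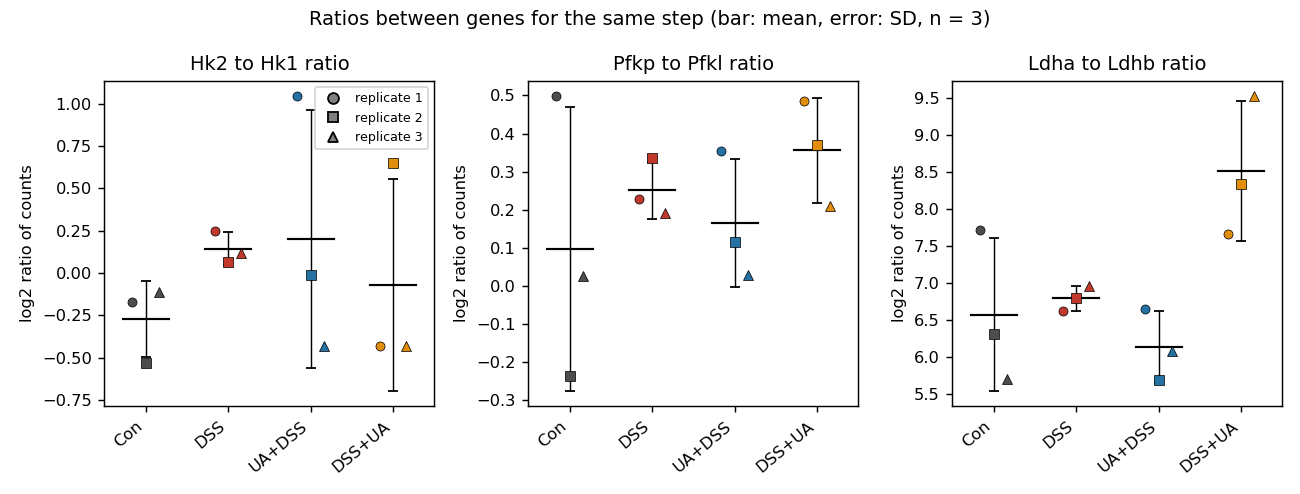
Log2 ratio of counts (vertical axis, not per kilobase) of Hk2 to Hk1, Pfkp to Pfkl and Ldha to Ldhb in the 12 libraries by group, with mean and SD over 3 mice. The groups overlap in the first 2 panels, and for Ldha to Ldhb the DSS+UA libraries sit at 7.67 to 9.53, with Con 1 at 7.71 among them.

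Of the other glycolytic enzymes, 18 were tested, with a median log2 fold change of -0.14 for DSS against Con. With DSS 3 were called higher (Hk3, Pgam1 and Eno1) and 1 lower (Eno3), beside 26.5% of all genes called. In UA+DSS against DSS 3 were lower (Hk3, Adpgk and Gapdh, the last with the counts described above), beside 18.7% of all genes called. In DSS+UA against DSS 1 was higher (Aldoc), beside 7.54% of all genes called. Hk3, the hexokinase of white blood cells, was at 1.40, 1.11 and 2.14 CPM in Con, at 15.2, 71.5 and 13.9 CPM in DSS, and lower than DSS in UA+DSS by 3.33 ± 0.71 on the log2 scale (adjusted p = 0.015). That last change was -2.13 without DSS 2, and its call was lost without UA+DSS 2 or UA+DSS 3, at an adjusted p of at most 0.076. The calls of Eno3 and Adpgk were lost in 8 and 9 of the 12 fits that each left out 1 library, and without DSS 2 Adpgk went from -1.40 to -0.65 (adjusted p = 0.19). Aldoc, a brain-type aldolase, was higher in DSS+UA than in DSS by 1.54 on that scale (SE 0.41, adjusted p = 0.046), a call lost in 10 of those 12 fits. In DSS+UA against Con, Eno1 (1.40 ± 0.23, adjusted p = 0.0055) and Pgam1 (1.11 ± 0.21, adjusted p = 0.0090) were higher, as were the members on either side of them. Pfkm, the muscle phosphofructokinase, stayed at 6.81 to 17.8 CPM with no call.

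A further list holds genes that set the pace of glycolysis or handle its products, pyruvate and lactate. Of 19 such genes tested, 2 were higher and 6 lower with DSS, beside 26.5% of all genes called. The 6 were Pfkfb2, Slc16a1, Bsg, Pdk2, Pdp2 and Mpc1. In UA+DSS against DSS, 2 were higher (Pdk2 and Bsg) and 2 lower (Pfkfb3 and Slc16a3), beside 18.7% of all genes called. In DSS+UA against DSS, 4 were higher (Pdk1, Pdp2, Pdhb and Mpc2), beside 7.54% of all genes called and 2.54% called higher. The 2 that rose with DSS were Pfkfb3, which makes the activator of phosphofructokinase, and Slc16a3 (MCT4), the lactate exporter of glycolytic cells. Pfkfb3 was at 8.79, 7.54 and 17.1 CPM in Con and at 62.8, 625 and 42.6 CPM in DSS (log2 fold change 4.45 ± 0.95, adjusted p = 0.0088). Slc16a3 was at 8.54 to 8.77 CPM in Con and at 31.7, 647 and 35.6 CPM in DSS (4.78 ± 1.08, adjusted p = 0.011). Both were above Con in all 3 DSS libraries and highest in DSS 2, without which the log2 fold changes were 2.24 and 1.96 (adjusted p = 0.0052 and 0.0036). In UA+DSS against DSS, Pfkfb3 changed by -3.85 and Slc16a3 by -4.00, and by -1.64 and -1.18 without DSS 2. Their calls there were lost without UA+DSS 2 or UA+DSS 3, that of Slc16a3 also without UA+DSS 1, and that of Bsg in 6 of the 12 fits that left out 1 library. The median of the 19 was -0.20 with DSS.

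Pdk2, a mitochondrial kinase that inhibits pyruvate dehydrogenase, moved the other way. It stood at 47.4, 58.6 and 48.2 CPM in Con, 19.1, 19.5 and 17.2 in DSS, 33.4, 64.6 and 56.6 in UA+DSS and 15.8, 29.4 and 23.5 in DSS+UA. The log2 fold change was -1.47 ± 0.26 for DSS against Con (adjusted p = 0.0042) and 1.47 ± 0.26 for UA+DSS against DSS (adjusted p = 0.010), the latter lost without UA+DSS 2 (0.054). Mpc1, a subunit of the mitochondrial pyruvate carrier, was lower with DSS by 0.82 ± 0.17 on the same scale (adjusted p = 0.0065). Slc16a1 was also lower (-1.14, edgeR adjusted p = 0.013), a call lost without Con 2. Pdp2 was lower with DSS as well (-0.95, adjusted p = 0.0080). It was at 28.6 to 35.6 CPM in Con, 12.2 to 19.3 in DSS, 11.7 to 15.9 in UA+DSS and 26.2 to 33.5 in DSS+UA. In DSS+UA, Pdk1 (0.74 ± 0.19), Pdp2 (0.82 ± 0.20) and Pdhb (0.63 ± 0.17), which act on or belong to pyruvate dehydrogenase, were higher than in DSS, with adjusted p-values of 0.043, 0.039 and 0.047. These 3 calls were lost in 10, 8 and 9 of the 12 fits that left out 1 library, DSS 2 among those for each.

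Among 12 other sugar transporters tested, 2 were called higher (Slc2a3 and Slc2a6) and 1 lower (Slc2a8) with DSS, beside 26.5% of all genes called. The call of Slc2a8 was lost in 10 of the 12 fits that left out 1 library. Slc2a3 (GLUT3), the high-affinity transporter of neurons and white blood cells, was at 2.12, 1.89 and 4.28 CPM in Con and at 13.6, 131 and 14.3 CPM in DSS (4.26 ± 0.89, adjusted p = 0.0083), and without DSS 2 the change was 2.33 (adjusted p = 0.0072). Slc2a6 was at 2.30 to 3.55 CPM in Con and 109.7 CPM in DSS 2, but at 6.69 and 5.39 CPM in the other 2 DSS libraries, and without DSS 2 it was not called (0.98, adjusted p = 0.23). The median of the 12 was 0.13. Slc5a9 was higher in UA+DSS than in DSS by 0.80 ± 0.25 (adjusted p = 0.045), a call lost in 9 of the 12 fits that left out 1 library.

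The 18447 CPM of neutrophil markers in DSS 2 were 17.7 times those of the next library, DSS 3, and Slc2a3, Hk3, Pfkfb3 and Slc16a3 peaked there too. Without DSS 2, the DSS libraries still held 921 and 1040 CPM of neutrophil markers against at most 115 in Con. Pkm was highest of the 12 libraries there, at 1635 CPM against 1130.2 and 1071 in the other DSS libraries, and Eno1 was highest of the DSS libraries at 877 CPM. Pgk1 stood at 615 CPM in DSS 2, between 669 in DSS 1 and 571 in DSS 3, and Ldha at 1253 CPM beside 1193 and 1176. Levels of Pgk1 and Ldha were higher in all 3 DSS+UA libraries, whose neutrophil markers summed to 407, 1019 and 1029 CPM. The part of these cells in the results was not tested. Macrophage and monocyte markers (8 genes) summed to 179 to 447 CPM in Con, 1188 to 2003 in DSS, 312 to 696 in UA+DSS and 405 to 1208 in DSS+UA. Epithelial markers summed to 10917 to 23684 CPM in Con, 5632 to 11556 in DSS, 19112 to 23579 in UA+DSS and 12634 to 17398 in DSS+UA. Proliferation genes (6) summed to 586 to 828 CPM in Con, 767 to 880 in DSS, 288 to 555 in UA+DSS and 718 to 1248 in DSS+UA. Against Con, 2 of the 6 were called higher in DSS and 3 in DSS+UA, beside 26.5% and 18.1% of all genes called. In UA+DSS 4 of the 6 were called lower than in DSS and 5 lower than in DSS+UA, beside 18.7% and 16.8%. Fibroblast markers (6) summed to 1068 to 1825 CPM in Con, 3197 to 6930 in DSS, 609 to 1636 in UA+DSS and 949 to 2340 in DSS+UA. Of these, 5 were called higher in DSS than in Con and 4 lower in UA+DSS than in DSS, beside 26.5% and 18.7% of all genes called. Smooth muscle markers (8) summed to 1296 to 4004, 839 to 1687, 1433 to 2814 and 549 to 982 CPM in the same order of groups. Of these, 4 were called higher in UA+DSS than in DSS+UA, beside 16.8% of all genes called. Their part in the results was likewise not tested.

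**Figure D5:**
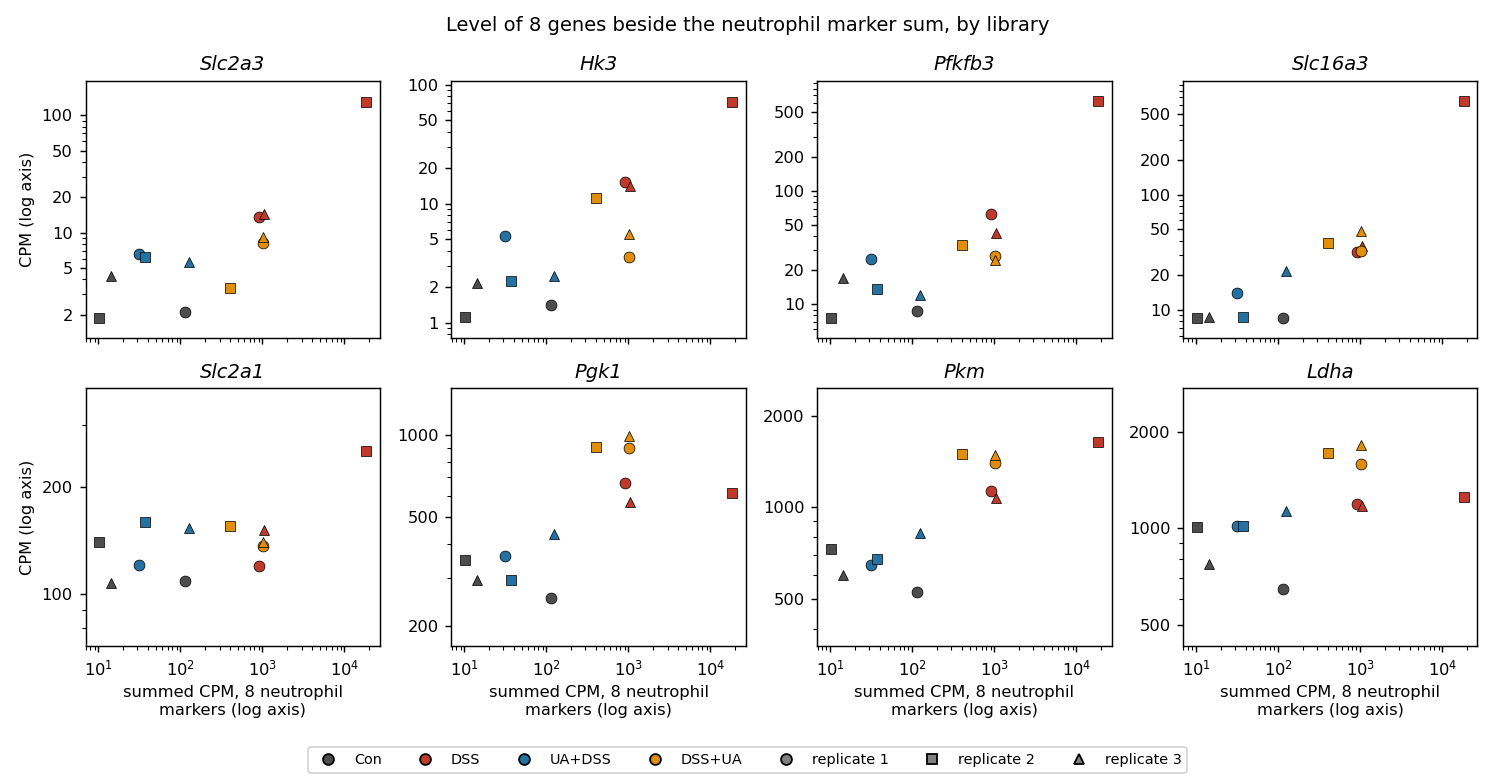
Level of 8 genes in CPM (vertical log axes) against the summed CPM of 8 neutrophil markers (horizontal log axis) in the 12 libraries, coloured by group. In DSS 2, at 18447 CPM of neutrophil markers, the 4 genes of the upper row and Slc2a1 peak, while Pgk1 and Ldha are highest in the 3 DSS+UA libraries.

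Hypoxia factors and their targets outside glycolysis formed the last list. With DSS 9 of 19 tested genes were higher and none lower, beside 13.9% of all genes called higher, among them Hif1a, Egln3, Ddit4 and Epas1. The median log2 fold change was 0.33, with 12 of the 19 above 0 and 7 below. Among those below were Vegfa, Car9 and Ndrg1, with means of 53.2, 44.9 and 122 CPM in DSS. In Con their means were 71.5, 60.8 and 154 CPM. Epas1 was not called without Con 1, Con 3, DSS 2 or DSS 3, at adjusted p-values up to 0.10. Hif1a, the oxygen-regulated subunit of HIF-1, was at 131, 103 and 113 CPM in Con and at 259, 417 and 376 CPM in DSS (log2 fold change 1.599 ± 0.35, adjusted p = 0.0085). In UA+DSS it was at 122.7, 42.9 and 129 CPM, below every DSS library (-1.83 ± 0.35, adjusted p = 0.011). In DSS+UA it was at 297, 269 and 305 CPM, and higher than in Con (1.33 ± 0.34, adjusted p = 0.025), though not without Con 2, Con 3, DSS+UA 1 or DSS+UA 3 (up to 0.073). Egln3, a prolyl hydroxylase that HIF induces, went from 19.8 to 40.9 CPM in Con to 69.1 to 110.3 in DSS and 104 to 158 in DSS+UA, with a log2 fold change against Con of 1.58 ± 0.28 (adjusted p = 0.0042) and 2.14 ± 0.29 (adjusted p = 0.0045). Ndrg1, another such target, did the reverse of Pgk1 between the UA schedules, with 256 to 306 CPM in UA+DSS above 66.2 to 90.6 CPM in DSS+UA (1.78 ± 0.25, adjusted p = 0.0060). In DSS+UA against Con, 4 of the 19 were higher and 2 lower, beside 18.1% of all genes called. The lower ones were Vegfa (-1.09, edgeR adjusted p = 0.016) and Ndrg1 (-0.90, adjusted p = 0.030). Their calls were lost in 2 and 5 of the 12 fits that left out 1 library. In UA+DSS against DSS, 2 of the 19 were higher (Ndrg1 and Ankrd37) and 1 lower (Hif1a), beside 18.7% of all genes called. In DSS+UA against DSS none was higher and 1, Epas1, was lower (-1.15 ± 0.21, adjusted p = 0.019), beside 7.54% of all genes called. The call of Epas1 was lost without DSS+UA 2 or DSS+UA 3.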

How the data were processed

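The authors mapped the reads to GRCm38 with HISAT2 and deposited whole-number counts per Ensembl gene for each sample, without normalization. FastQC and Cuffdiff are also named in the submitters' processing notes. The annotation, strand use and treatment of reads with several matches are not given in the sources at hand. Groups and replicate numbers are those of the labels, and the 10 genes and all lists were chosen with earlier results of these data known. Symbols came from GENCODE M21. Aldoa has 2 gene IDs and the 1 with more counts was used; the other held 162 counts.

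edgeR 4.0.16 kept 17658 of 54532 genes (filterByExpr, 99.8% of counts), applied TMM factors, and fitted the 12 samples together with its robust quasi-likelihood method. P-values were adjusted by Benjamini-Hochberg over the tested genes, and a gene was called at an adjusted p under 0.05. The biological coefficient of variation was 0.352. The fit was tested on simulated data. Levels are CPM, and correlations used log2 CPM with a prior count of 2. Ratios used counts with 0.5 added and exact permutation of the F statistic over groupings of the samples. An exact permutation test of 3 samples against 3 cannot go below p = 0.1. Processed copies are pseudogenes sharing at least 20% of their 25-base stretches with the gene. Named from each list were up to 3 genes of smallest p in each comparison with DSS, and Gapdh, Gpi1, Eno1, Pgam1, Pfkm and Ldhb. Alternatives were DESeq2 1.42.0, limma-voom (limma 3.58.1), other scalings and filters, a fit of 2 groups, the replicate number or the position score in the fit, added copies, and leaving out each library. Binomial intervals cover counting error only.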

Additional observations from a re-analysis of the deposited data

Results flagged for a closer look

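The effects of the 2 UA schedules, each against DSS, differed for 4 of the 10 members by the test of the difference itself (edgeR, UA+DSS against DSS+UA). It is the comparison already given above, in which 16.8% of all tested genes were called. The log2 difference was -1.36 ± 0.20 (SE) for Pgk1, -1.03 ± 0.22 for Pkm, -0.70 ± 0.20 for Tpi1 and -0.69 ± 0.20 for Ldha, with adjusted p-values of 0.0061, 0.014, 0.040 and 0.037. Both effects use the same DSS libraries, and the difference rests on the UA+DSS and DSS+UA libraries, whose position scores do not overlap. Groups of 3 samples are too small for a test of single outlying libraries.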

How the results depend on the processing

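Over the 23 alternatives to each of the 41 changes of a member given here, the sign and the side of the threshold held in 860 of 943 values. Of the other values 56 lost a call, 11 gained one and 16, of which no main value was called, changed sign. Of members called, the position score as a covariate gave 4 with DSS against Con, 0 for UA+DSS and 2 for DSS+UA when each was set against DSS, and 0 between the UA schedules, where the main values were 2, 2, 1 and 4. The limit of fits with the position score is given above. The fit of 2 groups gave 1, 0 and 0 in the first 3 of these and 3, against 5, in DSS+UA against Con. DESeq2 gave 4 in DSS+UA against DSS, library size alone gave 0 there, and no filter on counts gave 2 between the UA schedules. Leaving out 1 library at a time gave 0 to 2 called for UA+DSS and 0 to 1 for DSS+UA, each against DSS, and 1 to 4 between the UA schedules.

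Values near 0 changed sign. With the position score, Hk2 became -0.27 in UA+DSS against DSS, and in UA+DSS against Con Hk1 became -0.20, Pfkl -0.28 and Tpi1 -0.037. Between the UA schedules Pfkl became -1.47. Aldoa was 0.045 in DSS against Con by library size. Leaving out 1 library gave, in DSS against Con, -0.29 to 0.44 for Pfkl, -0.16 to 0.036 for Aldoa and -0.048 to 0.33 for Tpi1. Against DSS it gave -0.49 to 0.090 (UA+DSS) and -0.48 to 0.10 (DSS+UA) for Slc2a1, and -0.29 to 0.35 and -0.34 to 0.39 for Hk2. Hk1 in UA+DSS against Con ran from -0.0018 to 0.40. As the log2 difference of DSS+UA from Con, the Hk2 to Hk1 ratio ran from -0.16 to 0.38 and the Ldha to Ldhb ratio from 1.43 to 2.51. The causes were not tested.

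Same-numbered libraries of different groups had correlations of -0.22 to 0.19 over 18 pairs, and different-numbered ones of -0.29 to 0.24. These values gave no sign of pairing by number. Whether same-numbered mice shared a batch was not tested. With the replicate block the members called were 0, against 1, in DSS+UA against DSS, and their number was the same in the other comparisons. Library size in place of TMM moved the median of all genes in DSS+UA against DSS from 0.02 to -0.11, and the genes called there from 448 higher and 883 lower to 140 and 1003. For DSS+UA against Con, 1613 higher and 1580 lower became 1035 and 1557, and with upper-quartile factors 1192 and 1880. With 3 mice a group the SE of the changes of Hk2 was 0.37, and a missed threshold there does not show equal levels.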

Other observations

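Outside glycolysis, 2 of 7 genes of the pentose phosphate pathway, which draws on glucose 6-phosphate, rose with DSS and none fell. That share is near the 26.5% of all genes called there. Both genes belong to its oxidative part, which makes NADPH with 3 enzymes. G6pdx, its first enzyme, was at 67.8, 67.6 and 53.3 CPM in Con, 105, 145 and 96.7 in DSS, 72.0, 59.1 and 62.3 in UA+DSS and 121, 117 and 119 in DSS+UA. It rose with DSS (0.88 ± 0.17, adjusted p = 0.0059) and was lower in UA+DSS than in DSS (-0.84 ± 0.17, adjusted p = 0.013), the latter lost without UA+DSS 2 (0.069). Pgd, the third enzyme, rose with DSS (0.65 ± 0.17, adjusted p = 0.017) and was higher in DSS+UA than in Con (1.18 ± 0.17, adjusted p = 0.0049). Pgls, the second enzyme, was not called in any comparison, with -0.37 ± 0.21 for DSS against Con and 0.29 ± 0.21 for UA+DSS against DSS. The median log2 fold change of the 7 genes was 0.15 with DSS, against -0.03 over all tested genes.

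Of 7 genes of gluconeogenesis, which runs the pathway backwards, 2 fell with DSS and none rose, a share near the 26.5% of all genes called there. Pck1, its committed enzyme, was at 166, 150.3 and 161 CPM in Con, 18.2, 45.8 and 49.7 in DSS, 118, 198 and 150.5 in UA+DSS and 17.7, 44.1 and 27.0 in DSS+UA. It fell with DSS (-2.07 ± 0.40, adjusted p = 0.0056) and was higher in UA+DSS than in DSS (2.04 ± 0.40, adjusted p = 0.012), the latter lost without UA+DSS 2 (0.061). In DSS+UA it was lower than in Con (-2.43 ± 0.40, adjusted p = 0.0057). Fbp2, a fructose bisphosphatase, was higher than in DSS in both UA groups (0.63 ± 0.15 and 0.71 ± 0.15, adjusted p = 0.020 and 0.028), and neither call was held without DSS 2.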
